A study of Mus musculus with 6 samples.

Results

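The 92 genes of mouse potassium channel subunits described here are all the gene symbols of the count table that start with Kcn, go on with lower-case letters and end in a number, out of 44792 symbols. They were measured by RNA sequencing in hearts of 6 untreated C57BL/6 mice at 3 months of age. The genotypes were wild type (3 mice) and R193H (3 mice), named for an amino acid change in cTnI, the cardiac form of troponin I, which holds the contraction of heart muscle in check at low calcium. Zygosity, and the chambers that each sample held, were not given in the sources used here. P values weigh the difference between genotypes only against counting error and the spread between these hearts. The study asks which genes differ between the 2 genotypes.

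Potassium channels let potassium leave the heart muscle cell and so end its action potential and hold its resting voltage. Each channel is built of pore-forming subunits, most of them voltage-gated (Kv), inwardly rectifying (Kir), tandem pore domain (K2P) or calcium-activated, and many carry auxiliary subunits that set their gating and their number at the surface. In the mouse ventricle a fast transient outward current, carried by Kv4 channels with the auxiliary subunit KChIP2, and Kv1 and Kv2 currents do most of the repolarizing, while Kir2 channels hold the resting voltage.

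The pore is lined by a short signature, the selectivity filter, which sits at the narrowest point and picks potassium over sodium. The coding sequences of GENCODE M21 on GRCm38 held this signature in frame in all 77 pore-forming members and in none of the 15 auxiliary members (the KChIP, Kv beta, KCNE and BK beta genes), against 2.64% of 21562 coding genes. The genes below were split into pores and auxiliary subunits by name, and the signature followed that split. It was searched as threonine or serine, any residue, glycine, tyrosine or phenylalanine, and glycine. In all, 569 coding genes held it, most of them no members. Its codons are shown for members that the results turn on, in capitals with 15 bases on either side. They run 5′ to 3′ along the coding strand.
Kcnk3, the first of its 2 copies: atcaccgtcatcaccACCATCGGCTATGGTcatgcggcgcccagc
Kcnk3, the second copy: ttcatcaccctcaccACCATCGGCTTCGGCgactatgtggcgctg
Kcnj11: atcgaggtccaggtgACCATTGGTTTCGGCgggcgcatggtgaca
Kcnj14: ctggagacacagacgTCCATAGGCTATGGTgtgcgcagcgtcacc
Kcnj3: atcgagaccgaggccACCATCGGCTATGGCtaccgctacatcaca
Kcnj5: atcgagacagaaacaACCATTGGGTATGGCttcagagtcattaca
Kcnh2: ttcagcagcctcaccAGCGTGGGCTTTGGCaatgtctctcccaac
Kcnd2: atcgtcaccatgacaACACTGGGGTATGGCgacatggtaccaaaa
Kcna7: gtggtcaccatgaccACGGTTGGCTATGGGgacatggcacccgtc
A K2P subunit has a pair of pore loops in 1 protein. The signature was found at 2 places in Kcnk3 and most other K2P members, and at 1 place in Kcnk1, Kcnk6 and Kcnk7.

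Totals of the 6 libraries ran from 14736067 to 21852210 counts. Levels are given as CPM, counts per 1000000 counts of a library total scaled by the trimmed mean of M values (TMM). A count of 0 allows a level of up to 3 counts, which came to between 0.135 and 0.213 CPM and covers counting error alone. Markers of ventricular muscle summed to 37674 to 40849.8 CPM in wild type and from 34889.8 to 37362 CPM in R193H hearts. These sums did not overlap, with R193H lower, and 2 of the 7 markers had a higher mean in R193H hearts. The separation rests on the scaling. TMM factors were 0.957, 0.947 and 0.968 in the wild type and 1.02, 1.12 and 1.001 in the R193H hearts, which lowers R193H levels relative to library totals. Sums on unscaled library totals were not taken. Atrial markers (6 of 8 tested, 0 with a higher mean in R193H hearts) summed to 747, 357 and 94.6 CPM in the wild type and 156, 321 and 199 CPM in the R193H hearts, and none of the 8 was at 0 in all hearts. The atrial light chain gene Myl7 measured 74.1, 54.0 and 0.401 CPM in the wild type and 8.54, 62.1 and 2.89 CPM in the R193H hearts, so the hearts differed widely in atrial markers within each genotype. In these bulk samples, fewer cells of a type and less RNA per cell cannot be told apart.

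Of the 92 members, 47 were above noise, taken as more than 3 counts in each of the 6 hearts. A further 32 had a count in some heart without reaching this, and 13 had 0 counts in every heart. The same rule was met by 6 of 1102 olfactory receptor genes (0.544%), the odour receptors of the nose, of which Olfr1033 was the highest at a mean of 13.2 CPM, and by 32.1% of all symbols in the table. Of the 47, 38 form pores and 9 are auxiliary. With more than 10 counts in each heart 37 members remained, and 37 also had a CPM of at least 1 in at least 3 hearts. The other rule on olfactory receptor genes, a mean CPM above their 95th percentile, passed all 79 members with a count, because that percentile was 0 CPM.

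Per kilobase of exon, a scale on which genes can be compared, the levels were concentrated in a few members. The 3 highest held 44.1% and the 10 highest held 83.4% of the summed level of all 92. The order was Kcnk3 (54.9 CPM per kilobase, mean of 6 hearts), Kcnip2 (46.2), Kcnj11 (34.6), Kcng2 (24.7), Kcnj8 (19.2), Kcnh2 (18.6), Kcnj5 (17.9), Kcna5 (15.4), Kcnj3 (14.3), Kcnj12 (10.9) and Kcnj2 (8.51). Neighbours in this order overlapped in their range over the 6 hearts, and the first gap without overlap lay below Kcnj2. A total of 25 members averaged at least 1 CPM per kilobase, Kcnj14 among them through a single heart. With the longest transcript as length instead of all exons, the 4 highest kept their order.

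**Figure D1:**
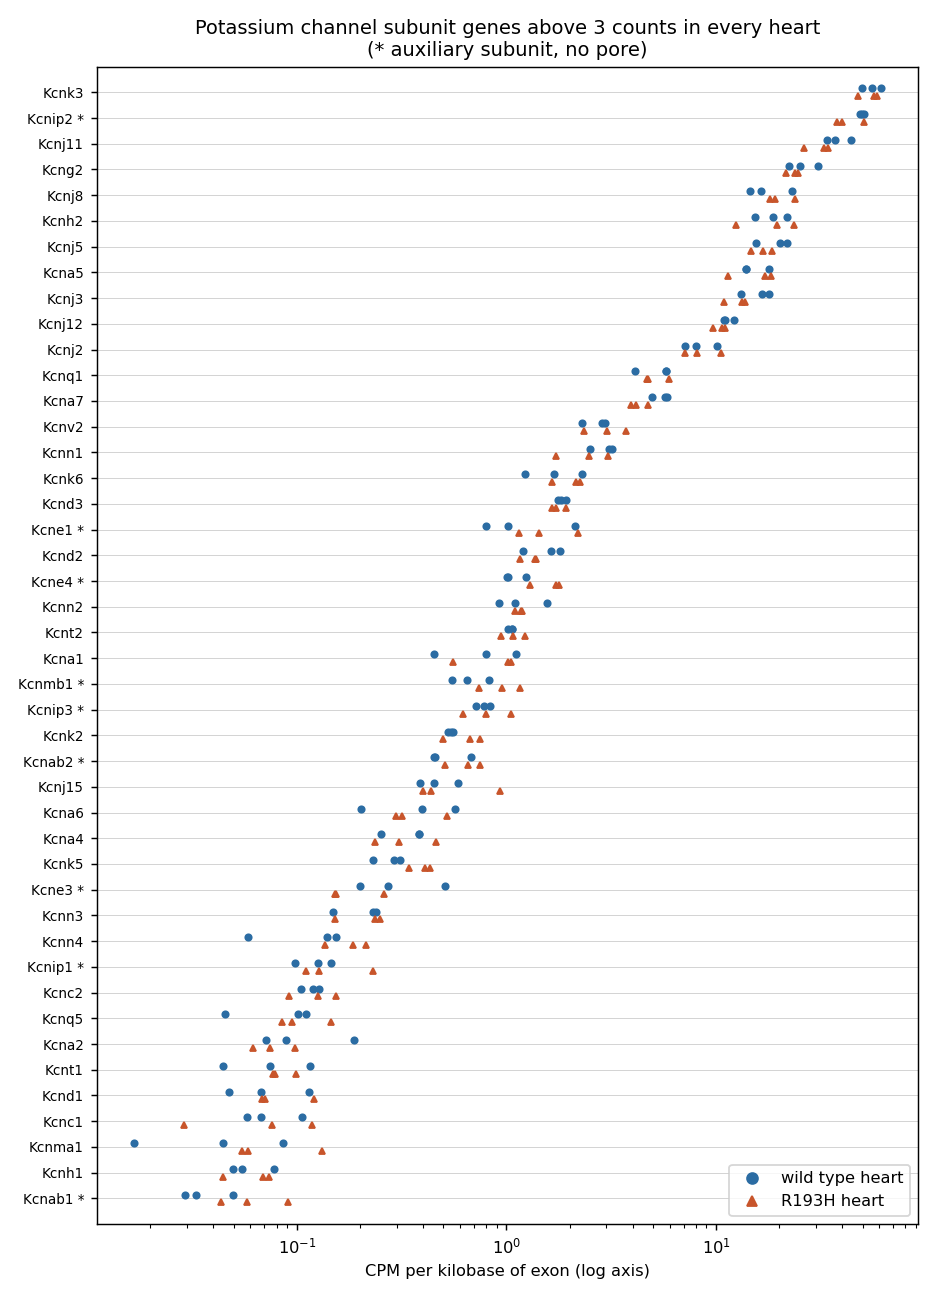
Level of 44 of the 47 members above noise, in CPM per kilobase of exon on a log axis, with 1 point per heart (circles wild type, triangles R193H) and an asterisk on auxiliary subunits. Kcnk3, Kcnip2 and Kcnj11 lie at the top, between 26.2 and 61.3 CPM per kilobase, and the points of the genotypes overlap for most genes.

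The members at 0 in every heart were Kcnj6, Kcnip4, Kcna10, Kcnf1, Kcng3, Kcns2, Kcnv1, Kcnh5, Kcnk9, Kcnk15, Kcnk16, Kcnk18 and Kcnmb3. Those with counts that missed the noise rule included Kcne2, a KCNE subunit known for modulating Kcnh2 channels, which had 1 count in all 6 hearts together. Kcnq3, a subunit of the neuronal M current, had 2. Kcnb2, a slow delayed rectifier, had 3. In 7 of the 11 classes below at least 1 member was at 0, and the K2P and Kv2, Kv3 and silent classes had 4 each.

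The 47 members tested were not the same set as the 47 above noise. Kcnab1, Kcnd1 and Kcne3 were above noise but not tested, and Kcnc4, Kcnj10 and Kcnj14 were tested but missed the noise rule. In edgeR's quasi-likelihood test, with Benjamini-Hochberg adjustment over 14370 genes, none of the 47 tested passed the threshold between genotypes. Of all genes, 0.00696% were called. At an unadjusted p under 0.05 there were 5 members, among them Kcna7, Kcne4, Kcnj3 and Kcnj11, 10.6% of those tested, against 5.73% of all genes. This number depended on the processing. With library totals as scaling it was 2, Kcne4 and Kcnmb1, and with a heart left out it ran from 1 to 8. DESeq2 also called 0 members, against 0.339% of all genes, and limma-voom called 0 members and 1 gene in all. At an unadjusted p under 0.05 there were 4 members in DESeq2 and 3 in limma-voom. Without a filter on low counts edgeR again called 0 of 79 members, against 0.16% of all genes, and 10 members had an unadjusted p under 0.05. The share of all genes at that unadjusted p was not taken for these other fits, so their counts of members have no background beside them. Adjusted p values of the members ran from 0.752 to 0.996. The median log2 fold change, R193H minus wild type throughout, was 0.036 over the 47, against -0.00036 over all genes tested. A higher mean in R193H hearts was found in 26 of the 47, against 49.9% of all genes tested. With library totals as scaling it was found in 36 of the 47, against 78.7% of all genes, whose median was then 0.13.

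The intervals say how large a difference these hearts could hide. For 30 of the 47 members the 95% interval lay within a log2 fold change of -1 to 1. The median SE was 0.13 for the 17 members with a mean of at least 10 CPM, 0.24 for the 17 from 2 to 10 CPM and 0.45 for the 13 under 2 CPM. Among the first group 13 of 17 had a lower mean in R193H hearts. From 2 to 10 CPM 12 of 17 stood higher, and under 2 CPM 10 of 13 did. Over all genes tested in these bands, 43.8%, 58.4% and 56.0% stood higher. With library totals as scaling, 10 of 17 in the first group stood higher, against 82.2% of all genes in that band. Spread between hearts of 1 group was a median of 13.7% of the mean for the 17 members at 10 CPM or more, against 8.43% for 7940 genes at that level.

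**Figure D2:**
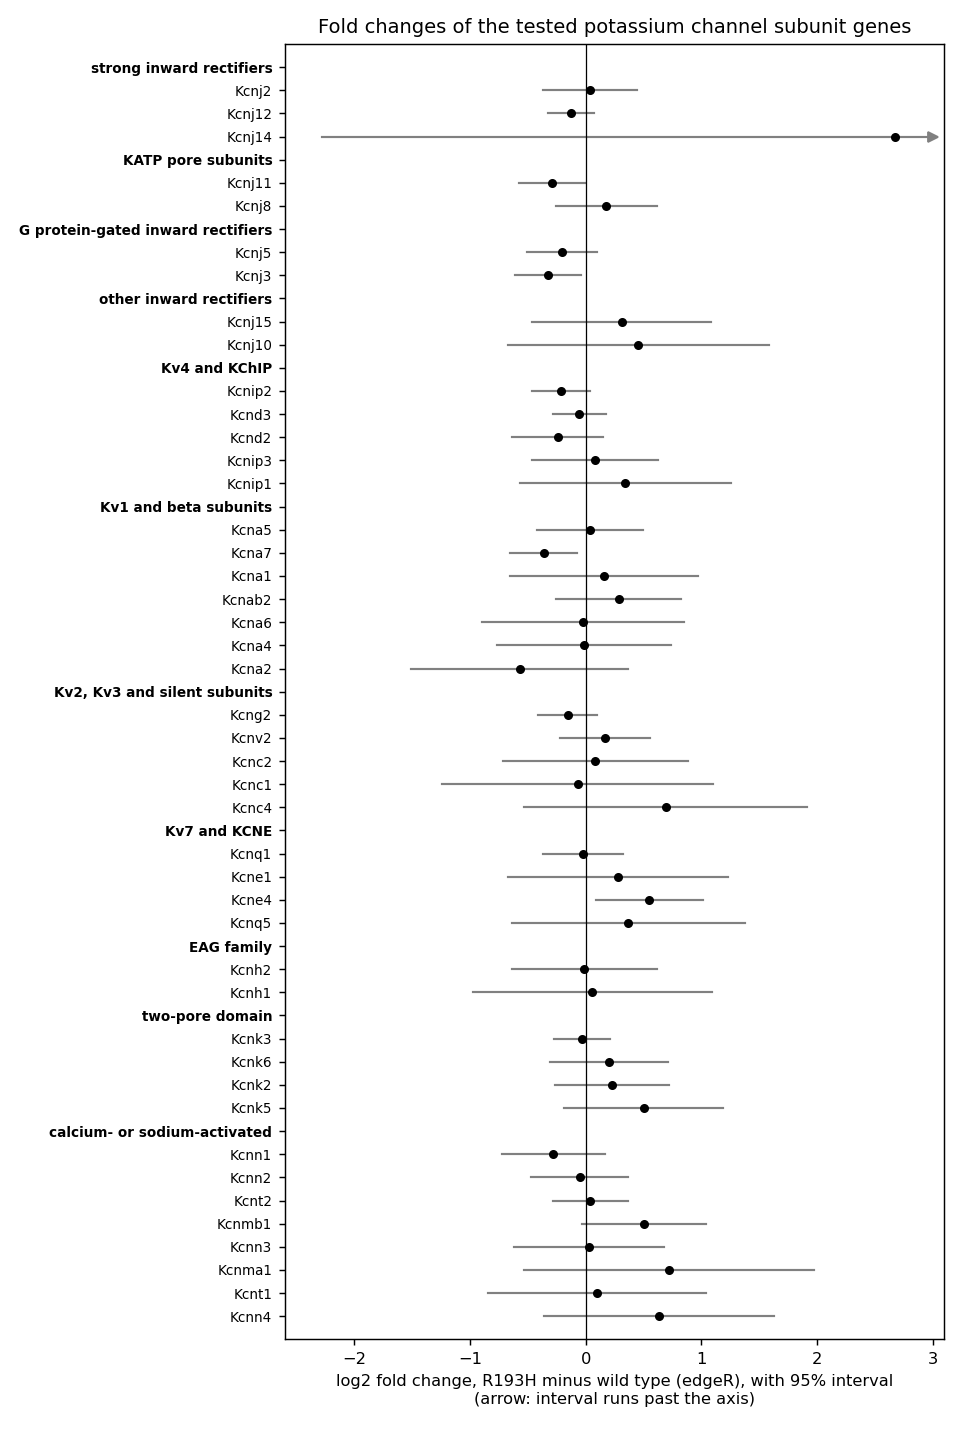
Log2 fold change of 44 of the 47 tested members, R193H minus wild type, grouped by channel class and ordered by level within a class, with points for the edgeR estimate and lines for its 95% interval. Most intervals cross 0, and that of Kcnj14 runs from -2.28 to 7.63, past the right edge of the axis.

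Groups that did not overlap were found for 4 members, 2 higher in R193H hearts (Kcne4 and Kcnk5, 4.26% of the 47) and 2 lower (4.26%), Kcna7 among them. Over all genes tested, 6.02% did not overlap with R193H higher and 5.8% with R193H lower, so the members' shares were no larger than the background.

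Strong inward rectifiers carry the current that holds the resting voltage. Kcnj2, which encodes Kir2.1, measured 54.8, 43.8 and 38.8 CPM in the wild type hearts and 44.2, 57.6 and 38.8 CPM in the R193H hearts. The groups overlapped, with the highest value in R193H replicate 2, and its log2 fold change was 0.036 (SE 0.17, 95% interval -0.37 to 0.44). Kcnj12, which encodes Kir2.2, measured 30.3, 33.6 and 30.1 CPM in the wild type hearts and 30.2, 29.2 and 26.7 CPM in the R193H hearts. It was among the steadiest members, with a spread of 6.29% within groups, and stood at -0.13 (SE 0.090, 95% interval -0.33 to 0.074). Per kilobase the ratio of Kcnj12 to Kcnj2 was 1.09, 1.52 and 1.53 in the wild type hearts and 1.35, 1.004 and 1.36 in the R193H hearts. Kcnj12 was the higher in every heart, though the pair were nearly level in R193H replicate 2. Kcnj4, the gene of Kir2.3, had 0 to 7 counts a heart and was not above noise.

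Kcnj14, the gene of Kir2.4, was set apart by a single heart. It measured 5, 12 and 21 counts in the wild type hearts and 14, 3 and 289 counts in the R193H hearts, which is 0.355, 0.727 and 1.05 CPM in the wild type hearts and 0.6295, 0.137 and 13.5 CPM in the R193H hearts. R193H replicate 3 held 84.0% of all its counts. The other 5 hearts lay between 0.137 and 1.05 CPM. R193H replicate 2 had the lowest value of all, and with its 3 counts Kcnj14 missed the noise rule. The log2 fold change was 2.68 (SE 1.84, 95% interval -2.28 to 7.63) with all hearts, -0.90 without R193H replicate 3, and 0.63 in limma-voom with all hearts, so in edgeR its sign was set by that heart. Kcnj14 was named after its values were seen.

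Kcnj14 lies on chromosome 7 of GRCm38.p6 (45816467 to 45824747 in RefSeq), and no other gene of GENCODE M21 shared its exons. Its neighbour Cyth2, 1879 bases away in GENCODE M21, measured 28.95, 32.2 and 30.7 CPM in the wild type hearts and 27.2, 31.5 and 27.7 CPM in the R193H hearts. Grwd1, 441 bases away on the other side, measured 8.02, 9.94 and 8.11 CPM in the wild type hearts and 9.35, 10.3 and 8.34 CPM in the R193H hearts. Neither neighbour stood out in R193H replicate 3. Of 12040 genes with at least 200 counts in all, 5 had at least 80% of them in a single heart. These were Kcnj14 in R193H replicate 3, the atrial gene Bmp10 in wild type replicate 1, and Gm12185, Gm6197 and Serpina3h in R193H replicate 1.

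**Figure D3:**
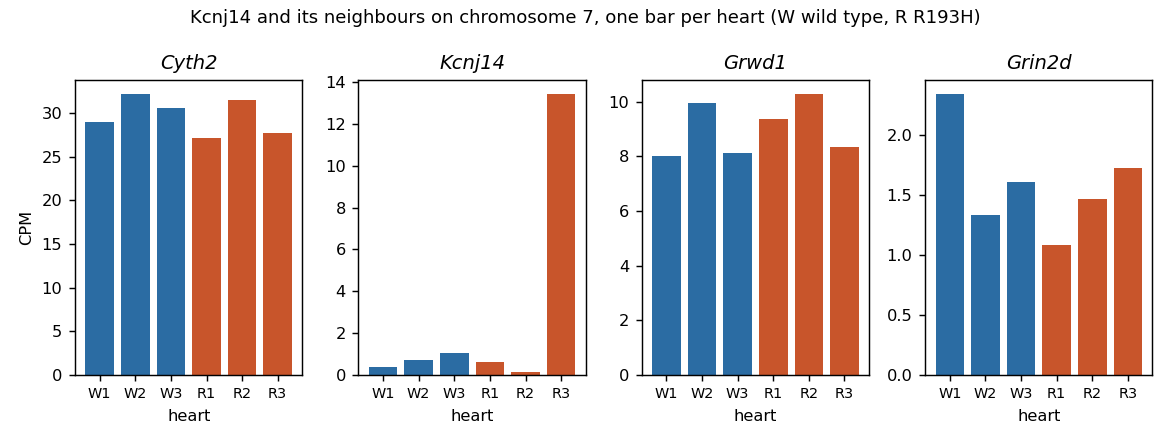
CPM of Kcnj14 and of 3 neighbours on chromosome 7, with 1 bar per heart (W wild type, R R193H) and an axis of its own for each gene. Kcnj14 reaches 13.5 CPM in R193H replicate 3 and at most 1.05 CPM elsewhere, while Cyth2, Grwd1 and Grin2d have no such bar.

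KATP channels open when ATP falls, and pair a Kir6 pore with a sulfonylurea receptor. Kcnj11, which encodes Kir6.2, the pore of cardiac muscle, measured 135, 161 and 124 CPM in the wild type hearts and 126, 120.5 and 96.2 CPM in the R193H hearts. The highest R193H heart lay just above the lowest wild type heart, and R193H replicate 3 was lowest. Its log2 fold change was -0.29 (SE 0.13, 95% interval -0.58 to -0.0080), with an edgeR adjusted p of 0.851. Kcnj8, which encodes Kir6.1, the form of vessel walls, measured 41.8, 36.97 and 58.6 CPM in the wild type hearts and 46.2, 60.9 and 48.5 CPM in the R193H hearts, and stood at 0.18 (SE 0.19, 95% interval -0.26 to 0.61). Its range without each heart in turn was 0.044 to 0.40. Smooth muscle and pericyte markers, of which 6 of 7 had a higher mean, summed to 787, 781 and 974 CPM in the wild type and 869, 977 and 751 CPM in the R193H hearts. Wild type replicate 3 and R193H replicate 2, the 2 hearts highest in these markers, were also the 2 highest in Kcnj8, and the part of these cells in the Kcnj8 values was not tested. Kcnj11 exceeded Kcnj8 per kilobase in every heart, with ratios of 2.24, 3.02 and 1.47 in the wild type hearts and 1.89, 1.37 and 1.37 in the R193H hearts.

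The receptors that pair with these pores are no members but complete the channel. Abcc9 (SUR2) measured 365, 344 and 317 CPM in the wild type hearts and 329, 268 and 329.8 CPM in the R193H hearts, a log2 fold change of -0.15 (SE 0.10, 95% interval -0.38 to 0.083). Abcc8 (SUR1) measured 47.4, 46.3 and 37.4 CPM in the wild type hearts and 36.2, 41.4 and 33.8 CPM in the R193H hearts, a log2 fold change of -0.23 (SE 0.11, 95% interval -0.49 to 0.022). Per kilobase Abcc9 was 6.25 to 9.43 times the level of Abcc8 over the 6 hearts. With the longest transcript as length, a choice made after seeing the data, it was 4.20 to 6.34 times that level.

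G protein-gated inward rectifiers open on vagal stimulation, through muscarinic receptors, and are known as atrial and nodal channels. Their pores Kcnj3 (Kir3.1) and Kcnj5 (Kir3.4) assemble together. Kcnj3 measured 85.9, 93.6 and 68.8 CPM in the wild type hearts and 69.5, 71.3 and 57.1 CPM in the R193H hearts, and only the highest 2 R193H hearts reached past the lowest wild type heart. It stood at -0.33 (SE 0.13, 95% interval -0.61 to -0.039), with an edgeR adjusted p of 0.803. Kcnj5 measured 94.6, 102 and 72.6 CPM in the wild type hearts and 78.8, 86.3 and 68.5 CPM in the R193H hearts and stood at -0.20 (SE 0.13, 95% interval -0.51 to 0.0997). Both had their highest value in wild type replicate 2 and their lowest in R193H replicate 3. The ratio of Kcnj5 to Kcnj3 per kilobase varied less than either gene, at 1.23, 1.22 and 1.17 in the wild type hearts and 1.26, 1.35 and 1.34 in the R193H hearts. The groups of this ratio did not overlap, while they overlapped in every other ratio of genes that was looked at. An exact permutation test of 3 hearts against 3 cannot give a two-sided p below 0.1, and the ratio was not tested.

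The atrial marker sums given above spread far more widely between wild type hearts than the levels of Kcnj3 and Kcnj5 did. The 3 hearts with the highest atrial sums, wild type replicates 1 and 2 and R193H replicate 2, were also the 3 highest in Kcnj3 and in Kcnj5, with wild type replicate 2 the highest in both genes. At the low end the orders differed. Wild type replicate 3 had the lowest atrial sum, but R193H replicate 3 was lowest in both genes. The part of atrial tissue in these values was not tested. Kcnj6 was at 0, and Kcnj9 had 3 counts, all in wild type replicate 2. Exons of Kcnj3 share 31.1% of their bases with Gm26794 on the opposite strand, and counts are uncertain there, because the strand setting of the counting was not stated.

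The remaining inward rectifiers (Kcnj1, Kcnj10, Kcnj13, Kcnj15 and Kcnj16) are known mainly from kidney, glia and epithelia. Only Kcnj15 was above noise, at 2.45 to 5.86 CPM, with the highest value in R193H replicate 2. Kcnj1, Kcnj13 and Kcnj16 had at most 7 counts over all 6 hearts.

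Kv4 channels and KChIP subunits give the fast transient outward current. Kcnd2 (Kv4.2) measured 8.44, 9.27 and 6.21 CPM in the wild type hearts and 5.98, 7.05 and 7.12 CPM in the R193H hearts, and Kcnd3 (Kv4.3) measured 18.5, 16.9 and 17.4 CPM in the wild type hearts and 18.3, 16.6 and 15.9 CPM in the R193H hearts. The groups overlapped for both. Their log2 fold changes were -0.24 (SE 0.18, 95% interval -0.64 to 0.15) and -0.056 (SE 0.10, 95% interval -0.28 to 0.17). The ratio of Kcnd3 to Kcnd2 per kilobase was 1.18, 0.98 and 1.51 in the wild type hearts and 1.65, 1.27 and 1.198 in the R193H hearts. With the longest transcript as length, a choice made after seeing the data, its wild type mean of 1.22 was 1.63. Kcnd1 was above noise but too low to be tested, at 0.250 to 0.640 CPM.

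Kcnip2 encodes KChIP2, the auxiliary subunit that Kv4 channels of the heart need to reach the surface, and it was the second highest member per kilobase. It measured 172, 176 and 169 CPM in the wild type hearts and 138, 132 and 177 CPM in the R193H hearts. The wild type hearts lay close together, while 2 R193H hearts lay below them and R193H replicate 3 just above. The log2 fold change was -0.21 (SE 0.11, 95% interval -0.46 to 0.036), with an edgeR adjusted p of 0.879, and it ran over -0.35 to -0.13 with each heart left out in turn. The ratio of Kcnip2 to the sum of Kcnd2 and Kcnd3, per kilobase, was 13.9, 14.2 and 16.1 in the wild type hearts and 12.9, 12.2 and 16.7 in the R193H hearts. Kcnip3 and Kcnip1 were far lower, at 2.19 to 3.73 and 0.606 to 1.44 CPM, and Kcnip4 was at 0.

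Of the Kv1 class, Kcna5 (Kv1.5) was the highest and is known as a delayed rectifier of mouse ventricle and atrium. It measured 39.9, 39.6 and 51.4 CPM in the wild type hearts and 52.6, 32.5 and 49.2 CPM in the R193H hearts and stood at 0.035 (SE 0.19, 95% interval -0.42 to 0.49), with the lowest value in R193H replicate 2. Kcna4 (Kv1.4), known for the slow transient outward current, measured 1.84, 1.21 and 1.85 CPM in the wild type hearts and 1.48, 1.14 and 2.24 CPM in the R193H hearts and stood at -0.016 (SE 0.34, 95% interval -0.76 to 0.73). Kcna7 (Kv1.7) had the smallest p of all members. It measured 12.5, 12.7 and 10.8 CPM in the wild type hearts and 9.04, 8.601 and 10.3 CPM in the R193H hearts, so every R193H heart lay below every wild type heart. Its group values were 11.99 ± 1.02 CPM in wild type and, for R193H, 9.31 ± 0.878 CPM (SD, n = 3 hearts each), its log2 fold change was -0.36 (SE 0.13, 95% interval -0.65 to -0.075), and its edgeR adjusted p was 0.752. With each heart left out in turn it ran over -0.43 to -0.31. Kcna1, Kcna2 and Kcna6 were above noise at 0.732 to 5.33 CPM, and the Kv beta genes Kcnab2 and Kcnab1 at 2.50 to 4.16 and 0.250 to 0.778 CPM. Kcna6 shares 39.6% of its exon bases with the antisense gene Gm26673 and is uncertain. Kcna3, a channel of lymphocytes, had 3 to 15 counts a heart and missed the noise rule.

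The class of Kv2, Kv3 and silent subunits had 6 of 16 members above noise. Silent subunits form no channel alone and change the gating of Kv2 partners. The silent subunit Kcng2 (Kv6.2) was the fourth highest member per kilobase and measured 75.5, 91.4 and 66.6 CPM in the wild type hearts and 73.7, 70.9 and 64.8 CPM in the R193H hearts, a log2 fold change of -0.16 (SE 0.12, 95% interval -0.41 to 0.10). Exons of Kcng2 share 9.1% of their bases with D330025C20Rik on the opposite strand. Kcnv2 (Kv8.2), another silent subunit, was at 11.7 to 19.1 CPM, and Kcng1, Kcng4, Kcns1 and Kcns3 missed the noise rule.

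Summed over a class, the K2P genes stood at 58.2 ± 5.20 CPM per kilobase in the wild type group against 57.5 ± 5.64 in the R193H group (SD over 3 hearts, as for the next sums). The KATP pores stood at 56.1 ± 2.63 and 51.5 ± 5.80, and Kv4 with KChIP at 54.0 ± 1.26 and 46.95 ± 6.84. Most of the Kv4 with KChIP sum was the auxiliary gene Kcnip2, at 49.7 in the wild type and 42.8 in the R193H group. The range of the genotypes overlapped in each of the 11 classes.

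**Figure D4:**
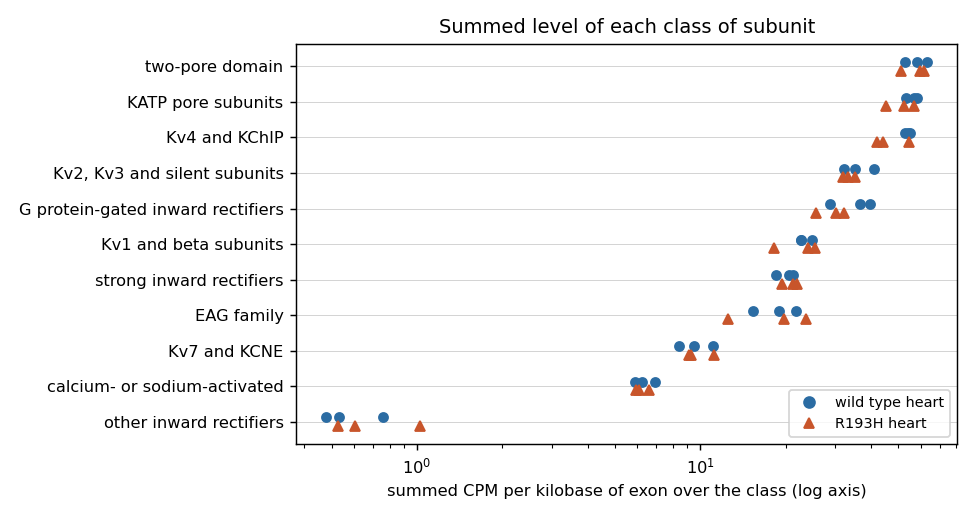
Summed level of each class in CPM per kilobase of exon on a log axis, with 1 point per heart (circles wild type, triangles R193H). The K2P, KATP and Kv4 with KChIP classes lie highest, the last of these mostly through the auxiliary gene Kcnip2, and the genotypes overlap in each class.

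Kv7 channels with KCNE subunits carry the slow delayed rectifier, and Kcnh2 the rapid one. Kcnq1 (Kv7.1) measured 23.6, 23.6 and 16.8 CPM in the wild type hearts and 19.3, 24.4 and 19.1 CPM in the R193H hearts and stood at -0.024 (SE 0.15, 95% interval -0.37 to 0.32). Its partner Kcne1 measured 3.26, 6.85 and 2.55 CPM in the wild type hearts and 4.59, 7.05 and 3.68 CPM in the R193H hearts, a log2 fold change of 0.28 (SE 0.40, 95% interval -0.67 to 1.23), with wild type replicate 2 and R193H replicate 2 well above the rest. Without wild type replicate 2 it was 0.82. Conduction system markers, of which 2 of 6 tested had a higher mean, summed to 27.4, 46.5 and 24.1 CPM in the wild type and 25.6, 37.97 and 20.7 CPM in the R193H hearts and were highest in the same 2 hearts, and their part in the Kcne1 values was not tested. Kcnq1 shares 2.96% of its exon bases with the antisense RNA Kcnq1ot1.

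Kcne4, which reduces the current of Kcnq1 channels, was the clearest of the members that stood higher. It measured 2.696, 2.67 and 3.31 CPM in the wild type hearts and 4.72, 4.57 and 3.45 CPM in the R193H hearts, so the groups did not overlap, though wild type replicate 3 and R193H replicate 3 were close. Group values were 2.89 ± 0.361 CPM in wild type and, for R193H, 4.25 ± 0.698 CPM (SD, n = 3 hearts each), the log2 fold change was 0.55 (SE 0.21, 95% interval 0.088 to 1.01), and the edgeR adjusted p was 0.782. Without each heart in turn it ran over 0.47 to 0.69. Kcne3 had 5 to 18 counts a heart and was not tested.

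Kcnh2 (ERG1) varied most between hearts among the 10 highest members, with a spread of 24.7% within groups. It measured 90.97, 106 and 74.3 CPM in the wild type hearts and 94.8, 114 and 60.2 CPM in the R193H hearts. Both the highest and the lowest heart were R193H, replicates 2 and 3. The log2 fold change was -0.012 (SE 0.26, 95% interval -0.64 to 0.62), and without R193H replicate 3 it was 0.22. Of the other EAG genes, Kcnh1 was above noise at 0.326 to 0.568 CPM, and the other 6 had at most 9 counts over all hearts.

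K2P channels carry a background potassium leak. Kcnk3 (TASK-1) was the highest of all members and measured 221, 244 and 197 CPM in the wild type hearts and 232, 226 and 189.7 CPM in the R193H hearts. The groups overlapped, and the log2 fold change of -0.032 (SE 0.11, 95% interval -0.27 to 0.21) had an interval close around 0. Its exons share 5.76% of their bases with Gm9899 on the opposite strand. Kcnk2 (TREK-1), a channel opened by stretch, measured 2.696, 2.61 and 2.75 CPM in the wild type hearts and 2.47, 3.29 and 3.68 CPM in the R193H hearts and stood at 0.23 (SE 0.22, 95% interval -0.27 to 0.72). It shares 12.2% of its exon bases with an antisense gene. Kcnk5 (TASK-2) measured 0.993, 0.788 and 1.05 CPM in the wild type hearts and 1.39, 1.46 and 1.16 CPM in the R193H hearts, with no overlap and R193H higher, at 0.50 (SE 0.31, 95% interval -0.18 to 1.19) and an edgeR adjusted p of 0.898. Kcnk6 was at 5.09 to 9.57 CPM. The other 10 K2P genes missed the noise rule, 4 of them at 0.

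Calcium-activated channels, together with the sodium-activated Kcnt1 and Kcnt2, held a small share of the summed CPM per kilobase of all members, 1.99% ± 0.125 in wild type and 2.09% ± 0.206 in R193H hearts. Kcnn2 (SK2), known from atria and nodes, measured 8.23, 11.7 and 6.91 CPM in the wild type hearts and 8.72, 8.23 and 8.85 CPM in the R193H hearts and stood at -0.054 (SE 0.19, 95% interval -0.47 to 0.36). Kcnn1 (SK1) was the highest of the class, at 7.91 to 14.7 CPM. Kcnma1, the BK pore, measured 0.284, 1.45 and 0.751 CPM in the wild type hearts and 0.989, 2.24 and 0.931 CPM in the R193H hearts, with 4 counts in wild type replicate 1, and stood at 0.72 (SE 0.56, 95% interval -0.53 to 1.97). It was 0.19 without R193H replicate 2, 0.34 without wild type replicate 1 and 1.35 without wild type replicate 2. Kcnmb1, its auxiliary subunit in smooth muscle, measured 3.48, 2.303 and 2.705 CPM in the wild type hearts and 3.103, 4.85 and 4.005 CPM in the R193H hearts and stood at 0.50 (SE 0.24, 95% interval -0.037 to 1.04), with an edgeR adjusted p of 0.866. The part of smooth muscle, whose marker sums are given with Kcnj8, was not tested. Kcnn4, an SK-related channel of blood and immune cells, was named after its values were seen. It measured 0.7096, 0.788 and 0.301 CPM in the wild type hearts and 0.944, 1.098 and 0.699 CPM in the R193H hearts and stood at 0.63 (SE 0.45, 95% interval -0.36 to 1.63). Leukocyte markers, with 6 of 7 at a higher mean, summed to 153 to 169 CPM in wild type and from 186 to 262 CPM in R193H hearts. Erythroid markers went the other way, with 0 of 5 at a higher mean. They summed to 3094, 257 and 2973 CPM in the wild type and 476, 630 and 566 CPM in the R193H hearts. The part of either cell type in the Kcnn4 values was not tested.

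**Figure D5:**
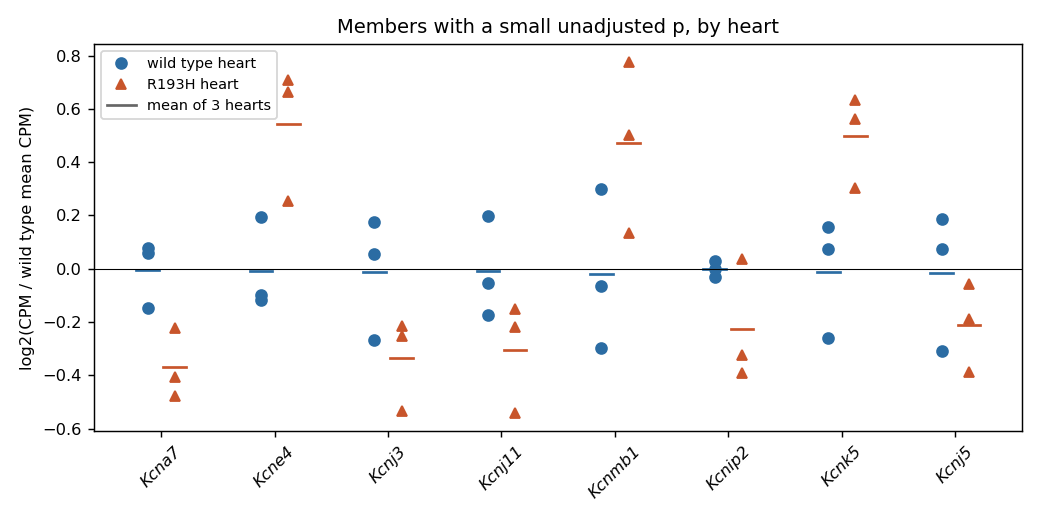
Log2 of CPM over the wild type mean CPM for 8 of the 10 members with the smallest unadjusted p, with 1 point per heart and a bar at the mean of 3 hearts. The genotypes are apart for Kcna7, Kcne4 and Kcnk5 and overlap for the other 5.

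A list of 25 related genes that are no members held 19 that were tested. None passed in edgeR, and 15 of the 19 stood lower in R193H hearts, with a median log2 fold change of -0.13. Over all genes tested, 49.9% stood higher. With library totals as scaling instead, 10 of the 19 stood lower, while 78.7% of all genes stood higher. Amigo1, an auxiliary subunit of Kv2 channels, stood at -0.19 (SE 0.11), and Tmem38b, a cation channel of the sarcoplasmic reticulum, at -0.17 (SE 0.10). Dpp6, a partner of Kv4 channels in neurons, was at 0 counts in every heart, and its relative Dpp10 had 3 counts in R193H replicate 2 only.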

How the data were processed

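The authors deposited 1 table of raw read counts per gene symbol for all 6 hearts, aligned with HISAT2 2.0.4 to GRCm38 per the submitters' processing notes. The counting program, annotation and strand setting were not given in the sources used here. Columns were matched to hearts by title and grouped by genotype, and replicate numbers only name a heart. In R 4.3.3, edgeR 4.0.16 tested the counts: filterByExpr kept 14370 genes, TMM scaled the totals, and the robust quasi-likelihood test compared genotypes with no covariate, adjusted by Benjamini-Hochberg with a threshold of 0.05. Intervals are at 95%. DESeq2 1.42.0 and limma-voom 3.58.1 were alternatives, with other scalings, filters and each heart left out. Exon lengths and coding sequences came from GENCODE M21, where all 92 members matched, and coordinates from RefSeq on GRCm38.p6. Scripts were tested on simulated data. Values by heart are given for 19 textbook cardiac members, the 10 highest in CPM and the 10 with the smallest p, but for a few genes that are not reported here. The members, lists and naming rule were chosen with earlier results of these data known.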

Additional observations from a re-analysis of the deposited data

How the results depend on the processing

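No potassium channel member was called under any of the 15 alternatives to the test, scaling, filter or set of hearts. The number of genes called among all tested was 1, and it was 43 in DESeq2, 38 without a filter, 0 with mitochondrial genes left out and 3 to 21 with a heart left out. Members with a higher R193H mean numbered 26 of 47, against 49.9% of all genes tested. They numbered 42 of 79 without a filter (51.7% of all genes) and 17 of 37 with a CPM minimum of 1 (49.8%). With a heart left out they numbered 21 to 30, with 47 to 50 members tested, against 49.6% to 51.2% of all genes. The median log2 fold change of the members was 0.17 with library totals as scaling and ran from -0.023 to 0.13 with a heart left out. Members above noise numbered 79 against the olfactory receptor genes. With library totals as scaling the sign turned for Kcna4 (0.097), Kcnd3 (0.071), Kcnh2 (0.13), Kcnj12 (0.0034), Kcnk3 (0.0998), Kcnn2 (0.073) and Kcnq1 (0.11). Leaving out 1 heart turned the sign for Kcna4 (-0.31 to 0.18), Kcna5 (-0.098 to 0.22), Kcne1 (-0.023 to 0.82), Kcnh2 (-0.22 to 0.22), Kcnj14 (-0.90 to 3.24), Kcnj2 (-0.14 to 0.18), Kcnk3 (-0.11 to 0.061), Kcnn2 (-0.22 to 0.19) and Kcnq1 (-0.17 to 0.056). No paired analysis was possible because the labels give the hearts no shared replicate numbers. The median SE was largest, at 0.45, in the members under 2 CPM, and the shares of counting error and of spread between hearts in it were not tested.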
